A study of Mus musculus with 36 samples.

Results

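Ccl3, Ccl4, Ccl5 and Xcl1 are chemokine genes typical of natural killer (NK) cells, and their transcripts were followed here through every NK library of a mouse RNA-seq study. The members were taken as the rows whose symbol equals one of these names in all 4 deposited expression tables, which gave 4 genes out of 32940 listed for sorted subsets and out of 56923 in each other table. Each member occurred once per table, as Ccl3 (ENSMUSG00000000982), Ccl4 (ENSMUSG00000018930), Ccl5 (ENSMUSG00000035042) and Xcl1 (ENSMUSG00000026573). Values are in TPM, which corrects for gene length and library total and so allows levels of different genes to be set side by side within a library.

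Chemokines are small secreted proteins that guide cells carrying the matching receptor. CCL3 and CCL4 are closely related proteins that lymphocytes make quickly on activation, and CCL3 binds CCR1. CCL5 is a late, long-lasting product of mature cytotoxic lymphocytes. XCL1 is the ligand of XCR1, a receptor of cross-presenting dendritic cells, and NK cells are known as one of its main sources.

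The study concerns NK cells that respond well and NK cells that have been desensitised, and it holds 36 samples in 12 groups of 3. In the first experiment, mature splenic NK cells (CD27-CD11b+) were sorted from C57BL/6 mice with normal B2m (WT) and from B2m-/- mice (KO). Without B2m, the light chain of MHC class I, little class I reaches the cell surface, and the receptors used for sorting are inhibitory receptors for class I. TP cells were Ly49C+Ly49I+NKG2A+, SP cells carried Ly49I alone of those receptors, and TN cells carried none of them. A second experiment held NK cells sorted from WT splenocytes after 22 h in vehicle or in ionomycin, which lets calcium cross the membrane. In the third, splenic NK cells of WT mice spent 48 h in medium, on plates coated with antibodies to NKp46 plus NKG2D, or on plates coated with antibodies to NKp46 plus DNAM-1; all of these are activating receptors. The fourth had CD27-CD11b+ NK cells from subcutaneous MC38 tumours lacking B2m, 10 days after inoculation of B6 mice; its column names also carry B2MKO and SP, which the labels do not explain for these samples, so whether these cells are an SP subset is unknown. MC38 is a mouse colon carcinoma line. The labels give no age or sex, and no untreated or blood NK cells stand beside the tumour group.

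Sequencing depth is unknown, since TPM keep no record of it; 12290 to 14501 genes were above 0 in a subset library. B2m ran from 2915 to 3420 TPM in WT subset libraries and from 73.9 to 128 TPM in KO ones, so each library matched its genotype label. In the tumour libraries, whose column names carry B2MKO, B2m was 3929 to 5196 TPM, so the cells sequenced there did transcribe B2m. The 5 NK cell markers summed to between 6587 and 7527 TPM in all 18 subset libraries. T cell markers summed to 0 to 17.6 TPM there, with Cd3e at most 1.25 TPM. Markers of B, plasma and neutrophil cells were highest in KO TP, where 7 B and plasma cell genes summed to 227 to 467 TPM and 6 neutrophil genes to 61.0 to 217 TPM. In WT TP the B and plasma cell genes summed to 33.2 to 42.5 TPM and every neutrophil marker was at 0, and in the other groups these sums were at most 52.8 and 5.85 TPM. The 6 dendritic cell genes were lowest in KO TP (344 to 403 TPM) and highest in WT TN (861 to 882 TPM). Most of that was Itgax, which NK cells also express, at 336 to 388 and 857 to 876 TPM. For 6 of the 9 antibody libraries, the group in the sample title differs from the group in the column name that the same label cites. Column names were followed, because they are attached to the values. In bulk RNA, fewer cells making a transcript and less transcript per cell cannot be told apart.

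The start-site regions of Ccl3 and Xcl1 are shown next, because only these 2 members had a promoter entry. Both were lower in KO than in WT SP cells, as was Ccl4. Whether the windows bear on these changes was not tested. RefSeq promoter windows (build GRCm38.p6, an older build than the GRCm39 named in the submitters' processing notes) were matched for 2 of the 4 members. The Ccl3 window lies at chr11:83649379-83649628 and the Xcl1 window at chr1:164935523-164935772, both on the minus strand, covering the 250 bases before the start of the gene model. Capitals mark matches, on either strand, to a RUNX motif (TGTGGT) or to the core of an NFAT site (GGAAA).
Ccl3: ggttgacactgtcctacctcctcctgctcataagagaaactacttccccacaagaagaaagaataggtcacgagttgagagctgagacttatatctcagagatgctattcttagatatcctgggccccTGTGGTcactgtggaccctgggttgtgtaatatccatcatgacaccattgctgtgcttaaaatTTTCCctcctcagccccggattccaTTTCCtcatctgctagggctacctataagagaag
Xcl1: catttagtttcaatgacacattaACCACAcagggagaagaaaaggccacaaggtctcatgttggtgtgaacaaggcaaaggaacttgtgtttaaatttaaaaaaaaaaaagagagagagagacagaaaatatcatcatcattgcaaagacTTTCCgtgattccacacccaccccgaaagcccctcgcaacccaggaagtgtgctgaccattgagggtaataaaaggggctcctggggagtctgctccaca

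The Ccl3 window held 2 matches to the NFAT core and 1 to the RUNX motif, and the Xcl1 window held 1 of each. The RUNX letters occur in 14.0% and the NFAT core in 55.6% of the 32851 promoter windows of this length, so the latter is a common find. An AP-1 motif (TGANTCA), present in 6.75% of windows, and a loose NF-kB motif (GGG and CC parted by 5 bases of any kind), present in 45.8%, had 0 matches in both, on either strand. A match describes the letters only. Ccl4 and Ccl5 had no entry. In the GENCODE M21 annotation of GRCm38, Ccl3 and Ccl4 are neighbouring coding genes on chromosome 11, on opposite strands, and Ccl5 is on the same chromosome.

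Ccl5 held most of the transcript of the 4 chemokines in the sorted mature NK subsets. It ranked between first and sixth among all listed genes in each of the 18 subset libraries, with 5676 to 10134 TPM, and supplied 91.0 to 96.4% of the TPM of the 4 members. Ccl3 ran from 142 to 258 TPM, Ccl4 from 57.5 to 147 TPM and Xcl1 from 56.9 to 234 TPM. Together the members took up 0.659 to 1.12% of the listed TPM of a subset library, with the highest share in WT TP (1.05 to 1.12%) and the lowest in WT TN (0.659 to 0.768%). The genes listed for the sorted subsets summed to 934292 to 948786 TPM per library, short of a full TPM total of 1000000.

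**Figure D1:**
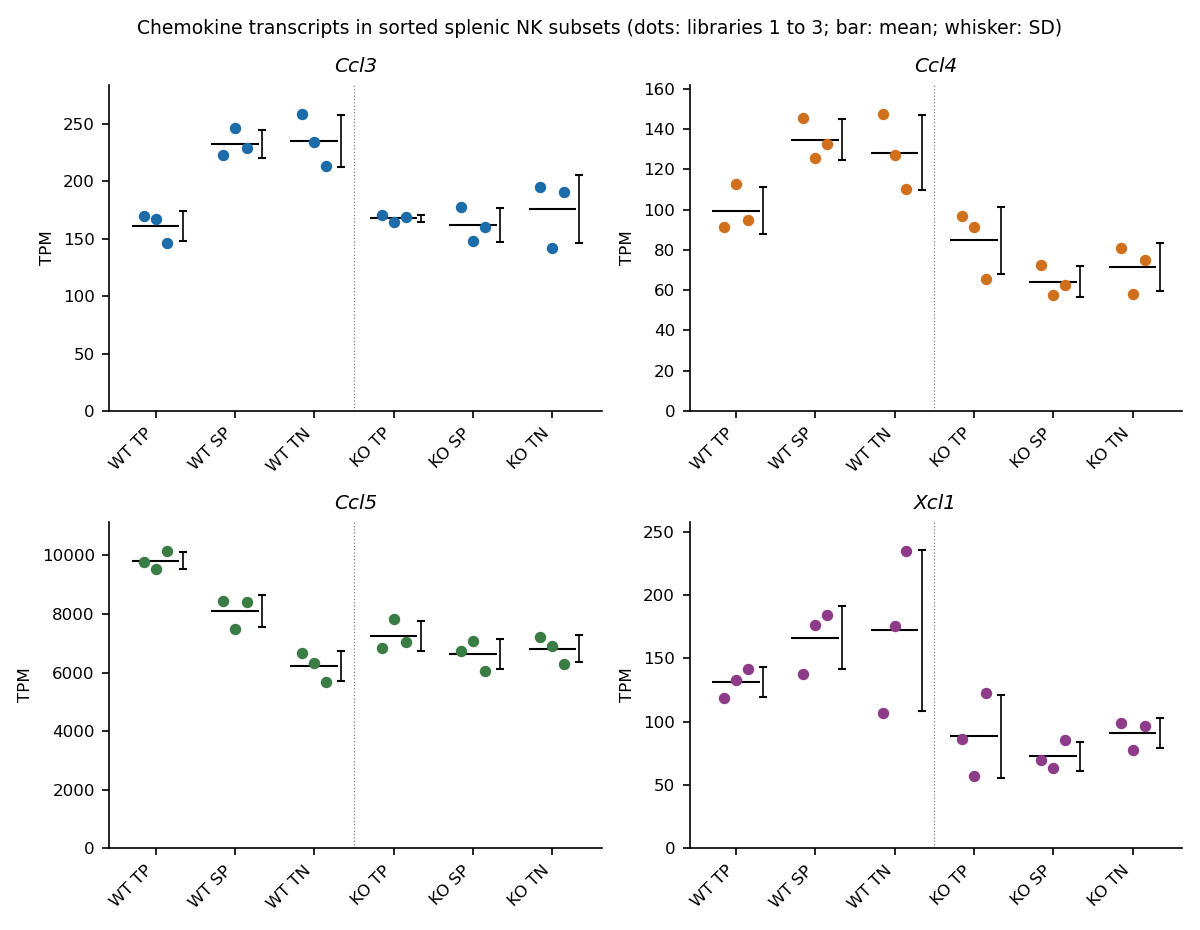
TPM of each chemokine (y axis, linear, from 0) in the 3 libraries of each sorted subset (x axis); dots are libraries, bars are means and whiskers are SD. Ccl5 was highest in WT TP, with all 3 libraries at 9535 TPM or more, while Ccl4 and Xcl1 lay lower in the KO SP and KO TN groups than in any WT group.

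Ccl5 measured 9787, 9535 and 10134 TPM in WT TP, 8427, 7477 and 8414 TPM in WT SP, and 6666, 6319 and 5676 TPM in WT TN. The 3 WT groups formed 3 separate steps; groups were apart for 14.6% of all genes tested in TN against TP and for 11.4% in TN against SP. In the KO libraries it was 6836, 7815 and 7049.6 TPM in TP, 6738, 7061 and 6057 TPM in SP, and 7211, 6917 and 6301 TPM in TN. These 3 groups overlapped one another. Ordered by mean, Ccl5 ran WT TP (9819 ± 301 TPM, SD, n = 3), WT SP (8106 ± 544), KO TP (7234 ± 515), KO TN (6809 ± 465), KO SP (6619 ± 512) and WT TN (6221 ± 503). Among neighbours in that order, only WT TP and WT SP did not overlap.

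Ccl3 measured 169.9, 168 and 146 TPM in WT TP, 223, 246 and 229 TPM in WT SP, and 258, 234 and 213 TPM in WT TN. WT SP and TN shared a range that lay above all WT TP libraries. The KO values were 170.2, 164 and 169 TPM in TP, 177, 148 and 160.0 TPM in SP, and 195, 142 and 191 TPM in TN. Each KO group overlapped WT TP. Means ran from 235 ± 22.8 TPM in WT TN and 233 ± 12.0 in WT SP down to KO TN (176 ± 29.7), KO TP (168 ± 3.07), KO SP (162 ± 14.9) and WT TP (161 ± 13.0; SD, n = 3). The single gap between neighbours fell between WT SP and KO TN.

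Ccl4 measured 91.2, 113 and 94.7 TPM in WT TP, 146, 126 and 133 TPM in WT SP, and 147, 127 and 110.3 TPM in WT TN. In KO it was 97.1, 91.7 and 65.6 TPM in TP, 72.6, 57.5 and 62.5 TPM in SP, and 81.1, 58.0 and 75.1 TPM in TN. All KO SP and KO TN libraries lay below all 9 WT libraries. The means ran from WT SP (135 ± 10.2 TPM, SD, n = 3) through WT TN (128 ± 18.6), WT TP (99.6 ± 11.6), KO TP (84.8 ± 16.8) and then KO TN (71.4 ± 12.0) to KO SP (64.2 ± 7.67), and every pair of neighbours overlapped.

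Xcl1 measured 119, 133 and 142 TPM in WT TP, 138, 176 and 184 TPM in WT SP, and 107, 175 and 234 TPM in WT TN. Its spread in WT TN, a CV of 37.0%, was far wider than that of Ccl5 in the same libraries (8.08%). The KO libraries gave 86.5, 56.9 and 122 TPM for TP cells, 69.5, 63.1 and 85.2 TPM for SP cells, and 99.2, 77.2 and 96.2 TPM in TN. All but 1 KO library, KO TP replicate 3, lay below every WT library. The order of means was WT TN (172 ± 63.8 TPM, SD, n = 3), WT SP (166 ± 24.9), WT TP (131 ± 11.8), KO TN (90.9 ± 11.9), KO TP (88.5 ± 32.8) and KO SP (72.6 ± 11.3), with a gap only between WT TP and KO TN.

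Among WT cells, those without the sorting receptors held less Ccl5 and more Ccl3 than those with all of them. Changes were fitted with limma on log2(TPM + 1), a scale that understates the change of low genes, and called at a Benjamini-Hochberg adjusted p under 0.05. In WT TN against WT TP, 2 of 4 members were called, where 1.31% of the 12018 genes tested were called. Ccl5 fell by 0.66 (SE 0.076, adjusted p = 6.06e-05), which is 1.58-fold lower. Ccl3 rose by 0.54 (SE 0.117, adjusted p = 0.0281), or 1.46-fold. Ccl4 differed by 0.36 (SE 0.164, adjusted p = 0.374) and Xcl1 by 0.32 (SE 0.259, adjusted p = 0.662), and neither was called. The median change of the 4 members was 0.34 against -0.01 over all genes tested.

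The Ccl3 call held in 1 of 6 fits that left out a library. It was lost without any one of the 3 WT TP libraries or of WT TN replicates 1 and 2 (adjusted p 0.0574 to 0.111), with changes between 0.47 and 0.61 throughout, and also without a variance trend (0.0773) or with only the compared groups in the fit (0.211). Ccl5 kept its call in all 6 such fits, but quantile normalization moved its change to -0.36 (adjusted p = 0.0966), and a fit of the compared groups alone also ended the call (adjusted p = 0.113). In those same groups Itgax, the CD11c gene, which NK cells also express, was 493 ± 47.9 TPM in WT TP and 865 ± 9.92 TPM in WT TN (SD, n = 3), and innate lymphoid cell 1 markers summed to 7.91 to 13.6 TPM and 0.51 to 2.84 TPM; their part in the chemokine differences was not tested.

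Between WT SP and WT TP, 0 of 4 members were called by limma, where 0.191% of genes were called. An unadjusted p under 0.05 was found for 3 members and for 927 of the 12018 genes tested. Ccl3 differed by 0.53 (SE 0.117, adjusted p = 0.0970), Ccl4 by 0.44 (SE 0.164, adjusted p = 0.520) and Ccl5 by -0.28 (SE 0.076, adjusted p = 0.256). The libraries of both groups did not overlap for these 3 members, as was the case for 10.6% of all genes tested.

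Between WT TN and WT SP, Ccl5 was the 1 of 4 members called, where 0.383% of genes were. Ccl5 fell by 0.38 from SP to TN (SE 0.076, adjusted p = 0.0362). That call was lost without WT SP replicate 1 or 3 or without WT TN replicate 2 or 3 (adjusted p 0.0727 to 0.109), and in 5 of the other 7 settings tried, median-of-ratios rescaling among them (-0.37, adjusted p = 0.0625). Ccl3 differed by 0.01 between these subsets, with a 95% interval from -0.23 to 0.26.

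In KO cells the steps between subsets were not detected. By limma, 0 of 4 members were called in KO TN against TP, KO SP against TP and KO TN against SP, where 0.524, 0.2 and 0.0416% of genes were called. A single member, Ccl4 in KO SP against TP, had an unadjusted p under 0.05, with a difference of -0.38 (SE 0.164, adjusted p = 1). In KO SP against TP, 352 of the 12018 genes tested had an unadjusted p under 0.05. Ccl5 differed by -0.09 between KO TN and TP, with a 95% interval from -0.25 to 0.07, and Ccl3 by 0.05, with an interval from -0.20 to 0.30.

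Whether the subset differences depended on genotype was tested with an interaction term, and 0 of 4 members were called in either contrast, where 0.025% of genes were called for TN against TP and 0.0166% for SP against TP. The WT minus KO difference of the TN against TP change was -0.57 for Ccl5 (SE 0.107, adjusted p = 0.0808), with rank 8 by p among 12018 genes. For Ccl3 it was 0.49 (SE 0.166, adjusted p = 0.647) and for Ccl4 0.60 (SE 0.232, adjusted p = 0.718). In SP against TP it was 0.59 for Ccl3 (SE 0.166, adjusted p = 0.867) and 0.82 for Ccl4 (SE 0.232, adjusted p = 0.867). At unadjusted p under 0.05 these counts were 3 and 2 of 4 members, beside 754 and 530 of the 12018 genes tested.

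All 5 called differences between KO and WT were lower in KO. Which members were called varied by subset, with Ccl4 called in both SP and TN. A difference in effect between subsets was not shown, since no member was called in the interactions above. Those interactions compare TN and SP with TP, and SP against TN was not tested for a difference in effect. In SP cells 3 of 4 members were called, all lower in KO, where 1.35% of genes were called and 0.582% were called lower. Ccl4 fell by 1.06 (SE 0.164, adjusted p = 0.00162), or 2.09-fold, and kept its call in all 6 fits without a library and under every other setting tried. Xcl1 fell by 1.18 (SE 0.259, adjusted p = 0.0280), or 2.27-fold, and Ccl3 by 0.52 (SE 0.117, adjusted p = 0.0330), or 1.44-fold. Ccl5 differed by -0.29 (SE 0.076, adjusted p = 0.0731). All 4 members were apart between the groups, as were 18.9% of all genes tested, and their median change was -0.79 against 0.03 over all genes.

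The Ccl3 and Xcl1 calls in SP cells were lost in 5 of 6 fits without a library. Ccl3 lost its call without WT SP replicate 1, 2 or 3 or KO SP replicate 2 or 3 (adjusted p 0.0551 to 0.166), and Xcl1 without WT SP replicate 2 or 3 or any KO SP library (0.0535 to 0.143). Without the filter, without a variance trend or with only the compared groups, both calls were also lost (adjusted p 0.0514 to 0.101). Without a library, the changes stayed between -0.59 and -0.46 for Ccl3 and between -1.31 and -1.09 for Xcl1. Itgax was also apart between these groups, at 498 to 527 TPM in KO SP and 565 to 712 TPM in WT SP, and so was the number of genes above 0, at 13813 to 14501 and 12290 to 13418. Their part in the chemokine changes was not tested.

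In TN cells Ccl4 was called, 1 of 4 members where 0.716% of genes were. It fell by 0.84 in KO (SE 0.164, adjusted p = 0.0203), or 1.79-fold. Without WT TN replicate 1 or 2 or KO TN replicate 2 or 3 the call was lost (adjusted p 0.0580 to 0.117), as it was without a variance trend (0.0533) and with only the compared groups (0.277). Ccl3 (-0.43, SE 0.117, adjusted p = 0.135) and Xcl1 (-0.85, SE 0.259, adjusted p = 0.203) were not called, although their KO and WT libraries did not overlap either; 13.7% of genes were apart in this way. Ccl5 did not share the direction, with a difference of 0.13 (SE 0.076, adjusted p = 0.575). Itgax was 591 to 694 TPM in KO TN and 857 to 876 TPM in WT TN, and its part in the Ccl4 change was not tested.

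In TP cells Ccl5 was the 1 of 4 members called, where 1.59% of genes were. Ccl5 fell by 0.44 in KO (SE 0.076, adjusted p = 0.00395), or 1.36-fold, and was called in all 6 fits without a library, but with quantile normalization it differed by -0.13 (adjusted p = 0.650), and 3 more settings ended the call (adjusted p 0.0647 to 0.137). It was the 1 member whose libraries did not overlap, as for 18.3% of genes. Ccl3 differed by 0.06 (SE 0.117, adjusted p = 0.896), Ccl4 by -0.24 (SE 0.164, adjusted p = 0.608) and Xcl1 by -0.63 (SE 0.259, adjusted p = 0.338). The KO TP libraries held the most B, plasma and neutrophil cell transcripts, as given above, and the part of these in the Ccl5 change was not tested.

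**Figure D2:**
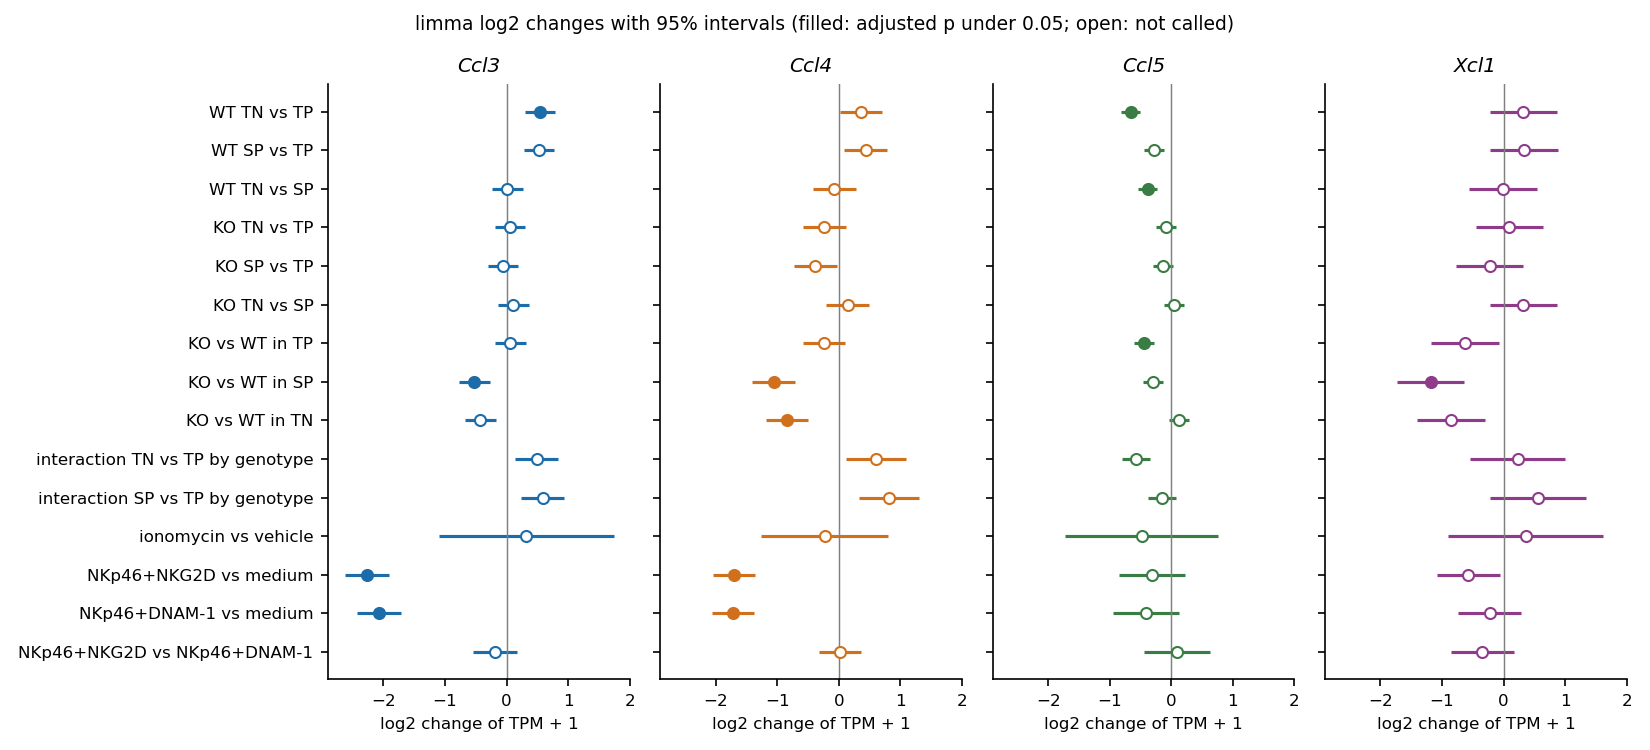
Change of each chemokine in the 15 comparisons (rows), as log2 of TPM + 1 with 95% intervals (x axis); filled points have an adjusted p under 0.05. Ccl3 and Ccl4 on activating antibodies (-2.27 to -1.70) stand far to the left of all other changes, and the intervals for ionomycin are the widest.

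The ratio of Ccl3 to Ccl4 within a library, which does not depend on how the library is scaled, separated the genotypes in SP and TN cells. It was 2.52 ± 0.0694 in KO SP against 1.74 ± 0.215 in WT SP, and 2.46 ± 0.0691 in KO TN against 1.84 ± 0.0885 in WT TN (SD, n = 3). These groups did not overlap, and the exact two-sided permutation test gave p = 0.1 for each, the smallest it can give with 3 against 3 (adjusted p = 0.14 over the 7 comparisons made of this ratio). In TP cells the ratio was 2.04 ± 0.464 in KO and 1.63 ± 0.203 in WT, and the groups overlapped (exact permutation p = 0.3).

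Activating antibodies went with much less Ccl3 and Ccl4 after 48 h, against cells left in medium. Ccl3 was 2713, 2165 and 2155 TPM in medium, 394, 466 and 616 TPM with NKp46+NKG2D, and 486, 589 and 591 TPM with NKp46+DNAM-1. Every medium library stood above every antibody library by a wide margin. Ccl4 was 2011, 1526 and 1556 TPM in medium, 455, 476 and 644 TPM with NKp46+NKG2D, and 452, 533 and 552 TPM with NKp46+DNAM-1, again with no overlap between medium and antibody. Among all genes tested, 17.3% were apart from medium with NKp46+NKG2D and 21.1% with NKp46+DNAM-1.

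With NKp46+NKG2D, 2 of 4 members were called lower, where 0.431% of the 13689 genes tested were called and 0.278% were called lower. Ccl3 fell by 2.27 (SE 0.161, adjusted p = 0.000472), or 4.81-fold, and had the smallest p of all genes tested in this comparison. Ccl4 fell by 1.70 (SE 0.153, adjusted p = 0.000711), or 3.24-fold. With NKp46+DNAM-1, the same 2 members were called lower, where 0.782% of genes were called and 0.497% were called lower. There Ccl3 fell by 2.07 (SE 0.161, adjusted p = 0.000519), or 4.21-fold, and Ccl4 by 1.72 (SE 0.153, adjusted p = 0.00101), or 3.30-fold. Both comparisons share the medium libraries. All 4 calls held in every fit without a library. They did not hold with groups taken from the sample titles, which left 0 and 1 of all 13689 genes called, and where Ccl3 differed by 0.06 and 0.20 and Ccl4 by -0.03 and 0.14 (adjusted p 0.951 to 1).

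In the main fit, Ccl5 and Xcl1 were not called on antibodies, although their mean levels were lower there too. Within each replicate number, both were lower with either antibody pair than in medium, and how many other genes were so was not counted. With the replicate number as a block in the limma fit, Ccl5 was called lower with NKp46+NKG2D (adjusted p = 0.048) and with NKp46+DNAM-1 (adjusted p = 0.0152). That block also raised the number of all genes called, from 59 to 239 and from 107 to 528 of 13689. No label states that a number marks a shared mouse. Ccl5 was 2872, 2480 and 1849 TPM in medium, 2289, 2123 and 1401 TPM with NKp46+NKG2D, and 2098, 2092 and 1288 TPM with NKp46+DNAM-1. The ranges overlapped, and the changes of -0.32 (SE 0.241, adjusted p = 0.560) and -0.41 (SE 0.241, adjusted p = 0.412) were not called. Xcl1 was 2134, 1381 and 1884 TPM in medium, 1069, 939 and 1677 TPM with NKp46+NKG2D, and 1399, 1328 and 1863 TPM with NKp46+DNAM-1. It too overlapped, with changes of -0.57 (SE 0.228, adjusted p = 0.274) and -0.23 (SE 0.228, adjusted p = 0.641). The median change of the members was -1.14 with NKp46+NKG2D and -1.06 with NKp46+DNAM-1, against -0.04 over all genes in each.

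**Figure D3:**
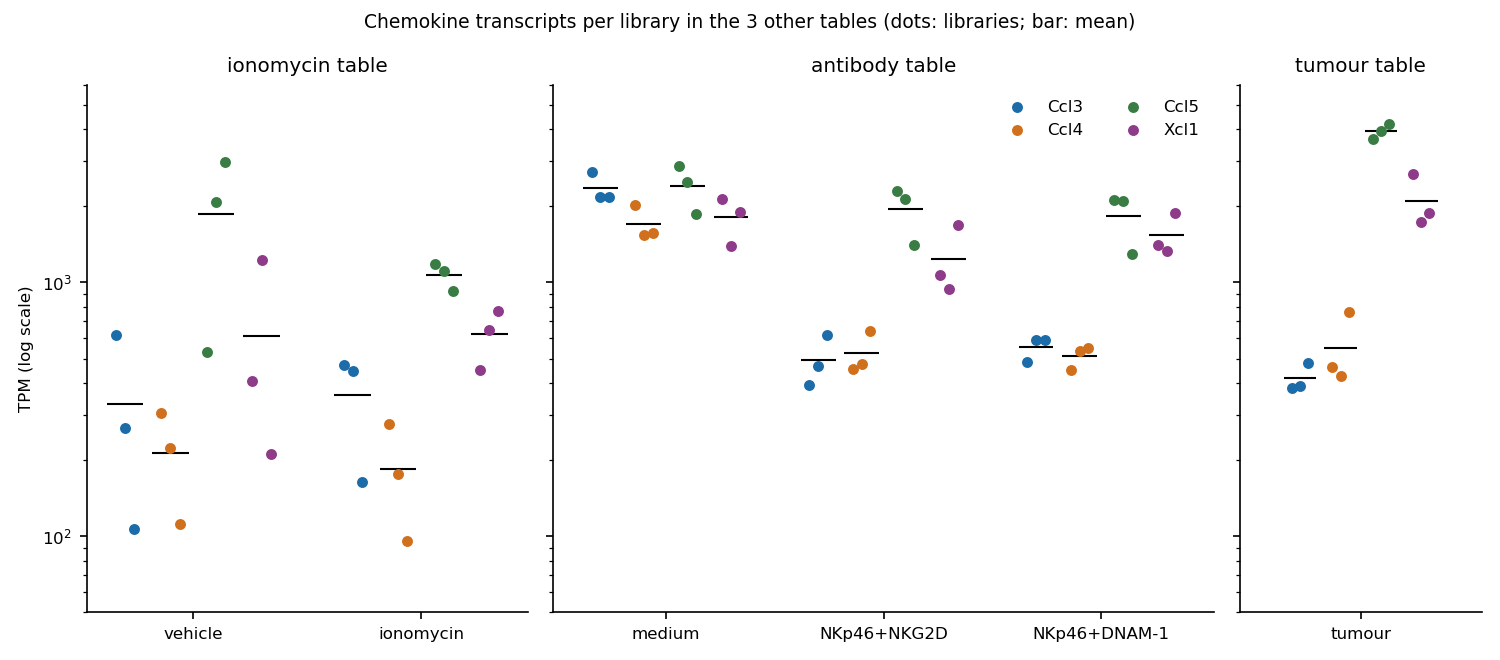
TPM (y axis, log scale) of the 4 chemokines per library in the ionomycin, antibody and tumour tables; dots are libraries and bars are means, with colour marking the gene. Ccl3 and Ccl4 drop from 1526 TPM or more in medium to 644 TPM or less with either antibody pair, and vehicle libraries scatter widely. Levels were not tested across tables.

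Other markers also moved between medium and antibody libraries. The NK markers summed to 5168 to 5355 TPM in medium and 3998 to 4744 TPM with antibodies, T cell markers to 27.6 to 71.6 TPM against 20.1 to 39.6 TPM, and Il7r, a cytokine receptor gene of T cells and innate lymphoid cells, was 24.5 to 38.1 TPM against 4.71 to 9.15 TPM. Among the T cell markers, Cd3e was 4.54 to 31.4 TPM in medium. It was 3.55 to 5.40 TPM with NKp46+NKG2D and 3.91 to 8.72 TPM with NKp46+DNAM-1. Cd4 and Cd8b1 were at 0 in all 9 libraries. Genes above 0 numbered 13555 to 14674 in medium libraries, 16107 to 17680 with NKp46+NKG2D and 17132 to 18096 with NKp46+DNAM-1. The part of these features in the Ccl3 and Ccl4 changes was not tested.

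No difference between the antibody pairs was detected in a single member. By limma 0 of 4 were called, where 0.0146% of genes were, and none had an unadjusted p under 0.05. The difference of NKp46+NKG2D minus NKp46+DNAM-1 was -0.19 for Ccl3 (95% interval -0.55 to 0.17), 0.02 for Ccl4 (-0.32 to 0.36), 0.09 for Ccl5 (-0.45 to 0.63) and -0.35 for Xcl1 (-0.85 to 0.16). The ratio of Ccl3 to Ccl4 formed 3 separate levels, with 1.38 ± 0.0345 in medium, 1.08 ± 0.0189 with NKp46+DNAM-1 and 0.934 ± 0.0601 with NKp46+NKG2D (SD, n = 3). Each pair of groups was apart, and each exact permutation test gave p = 0.1, the smallest possible (adjusted p = 0.14).

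**Figure D4:**
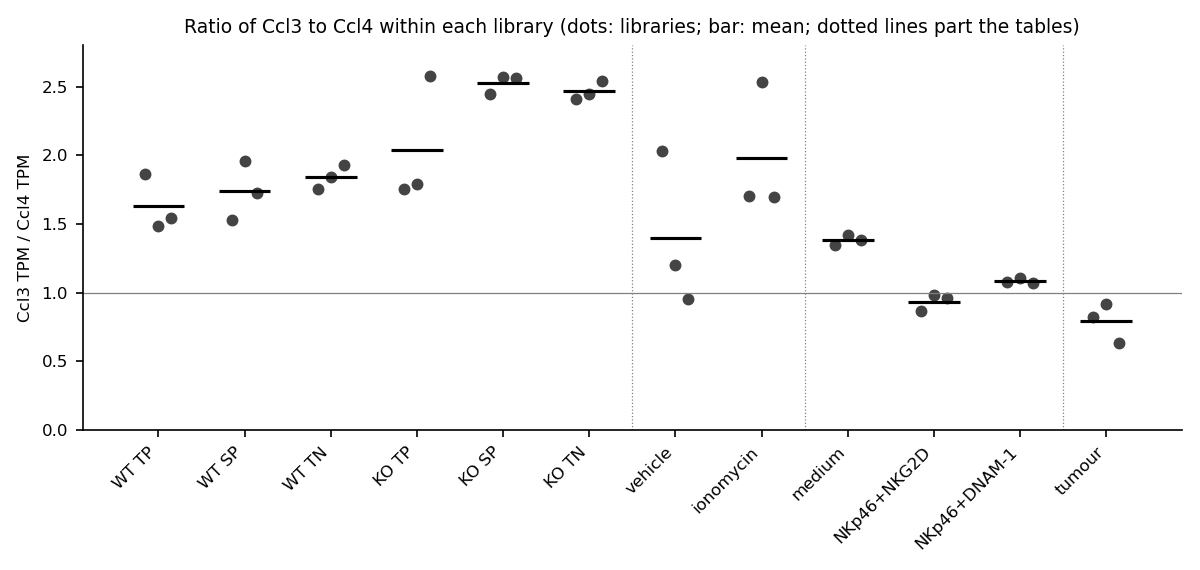
Ratio of Ccl3 TPM to Ccl4 TPM in each library (y axis, linear, from 0) by group (x axis); dots are libraries, bars are means, and dotted lines part the 4 tables. The ratio was about 2.5 in KO SP and KO TN, and lay under 1 in all 3 NKp46+NKG2D and all 3 tumour libraries. Single libraries of other groups reached these levels too: KO TP replicate 3 (2.58), ionomycin replicate 2 (2.53) and, under 1, vehicle replicate 3 (0.9545).

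A caution applies to Xcl1. In GENCODE M21 the gene overlaps Gm20743 (ENSMUSG00000104117), a processed transcript on the opposite strand. The sources used here do not say whether counting used the strand, so how reads of the overlap were assigned is unknown. Gm20743, named after its values were seen, was 83.3, 40.0 and 71.3 TPM in medium, 6.45, 3.35 and 4.53 TPM with NKp46+NKG2D, and 7.69, 7.45 and 10.1 TPM with NKp46+DNAM-1. It fell by 3.48 (SE 0.322, adjusted p = 0.000735) and 2.75 (SE 0.322, adjusted p = 0.00373), while Xcl1 was not called. In subset libraries Gm20743 was at most 2.43 TPM, beside 56.9 to 234 TPM of Xcl1. In tumour libraries it was 77.3, 55.6 and 60.4 TPM, beside 2664, 1726 and 1872 TPM of Xcl1.

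Ionomycin gave no detectable change of any member at this spread, in libraries with 15157 to 15483 genes above 0 against 13904 to 14578 with vehicle. Ccl3 was 618, 266 and 107 TPM with vehicle and 472, 445 and 163 TPM with ionomycin. Ccl4 was 304, 222 and 112 TPM with vehicle and 277, 176 and 95.9 TPM with ionomycin. Groups overlapped for both genes. For each gene, replicate 1 was the highest and replicate 3 the lowest, with vehicle and with ionomycin alike. Ccl5 was 529, 2071 and 2962 TPM with vehicle, a 66.4% CV, and 1180.3, 1108 and 919 TPM with ionomycin, a 12.6% CV. Xcl1 was 409, 1226 and 210.1 TPM with vehicle and 449, 647 and 771 TPM with ionomycin. Vehicle replicate 1 was thus the library with the least Ccl5, and vehicle replicate 3 the one with the least Xcl1 and the most Ccl5.

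By limma, 0 of 4 members were called, where 2.91% of the 14372 genes tested were, and none had an unadjusted p under 0.05. The changes were 0.32 for Ccl3 (95% interval -1.10 to 1.74), -0.23 for Ccl4 (-1.26 to 0.80), -0.48 for Ccl5 (-1.72 to 0.76) and 0.36 for Xcl1 (-0.90 to 1.62). These intervals include changes larger than any member showed between the sorted groups. Without vehicle replicate 3 the values were -0.32, -0.63, 0.02 and -0.22, so 3 of them turned sign. The NK markers summed to 2769 to 4328 TPM with vehicle and 1983 to 2347 TPM with ionomycin. Vehicle replicate 3 also held 377 TPM of neutrophil markers, against 0 and 2.19 TPM in the other vehicle libraries and 0, 0.7 and 120.2 TPM with ionomycin. Ifng, the interferon-gamma gene, was 27589, 2522 and 82.4 TPM in vehicle replicates 1, 2 and 3 and 1556, 1002 and 852 TPM with ionomycin. Whether these features bear on the chemokine values was not tested.

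NK cells from tumours carried all 4 transcripts. Ccl5 was 3662, 3927 and 4180.4 TPM, with rank 18 to 21 among listed genes, and Xcl1 was 2664, 1726 and 1872 TPM. Ccl4 was 463, 427 and 760.1 TPM and Ccl3 381, 391 and 481 TPM, so that Ccl4 exceeded Ccl3 in each library. No control group belongs to this table, and its batch date is shared with the ionomycin experiment only, so no comparison was made. The NK markers summed to 2329 to 2764 TPM, the monocyte and macrophage markers to 39.9 to 90.5 TPM and the epithelial markers to 0 to 2.71 TPM. Innate lymphoid cell 1 markers summed to 21.8 to 24.1 TPM, with Itga1 at 15.7 to 22.5 TPM. T cell markers summed to 4.42 to 14.0 TPM, with Cd3e at 0.

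Genes that act on or beside the members were followed through lists fixed by role. Ccr1, a receptor gene for CCL3, was at most 1.02 TPM in any subset library.

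Of 30 other chemokine genes, 4 passed the filter among sorted subsets, 11 in the ionomycin experiment and 7 with antibodies. The 1 call was Ccl9, a CCR1 ligand, which was higher with NKp46+DNAM-1 (39.9 ± 9.44 TPM) than in medium (14.6 ± 3.61 TPM; SD, n = 3), a rise of 1.38 (SE 0.236, adjusted p = 0.0337). With NKp46+NKG2D it differed by 1.22 (SE 0.236, adjusted p = 0.0716). The median change of the 7 tested was -0.75 with NKp46+NKG2D and -0.12 with NKp46+DNAM-1.

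Transcription factors linked to chemokine genes gave 2 calls of 13 tested in WT TN against TP, both higher. Eomes, a T-box factor of NK cell development, rose by 0.73 (SE 0.082, adjusted p = 4.82e-05), from 319 ± 10.3 to 531 ± 38.7 TPM, and Nfkb1, an NF-kB subunit gene, rose by 0.51 (SE 0.079, adjusted p = 0.00167), from 198 ± 10.6 to 284 ± 5.77 TPM (SD, n = 3). On antibodies 2 of 14 were called in each comparison, both lower. Fos, an immediate-early AP-1 gene, fell by 2.64 with NKp46+NKG2D (SE 0.238, adjusted p = 0.000711) and by 2.34 with NKp46+DNAM-1 (SE 0.238, adjusted p = 0.00164). Junb, another AP-1 gene, fell by 1.35 (SE 0.128, adjusted p = 0.000813) and 1.14 (SE 0.128, adjusted p = 0.00295). With ionomycin 1 of 14 was called, Runx3, a Runt factor of cytotoxic lymphocytes, which fell by 1.98 (SE 0.241, adjusted p = 0.00572), from 364 ± 69.9 to 92.2 ± 20.2 TPM (SD, n = 3).

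The 3 genes of the Zfp36 family encode proteins that bind AU-rich mRNA, including cytokine and chemokine mRNA, and promote its decay. Zfp36l2 rose in KO in each subset, by 1.44 in TP (SE 0.086, adjusted p = 1.93e-08), 1.32 in SP (SE 0.086, adjusted p = 7.54e-08) and 1.16 in TN (SE 0.086, adjusted p = 4.56e-07). Its level was 357 ± 29.3 TPM in WT TP and 968 ± 61.5 TPM in KO TP (SD, n = 3). Zfp36 and Zfp36l1 were not called there. On antibodies 2 of 3 were called, both lower. Zfp36 fell by 2.27 with NKp46+NKG2D (SE 0.203, adjusted p = 0.000711) and 2.08 with NKp46+DNAM-1 (SE 0.203, adjusted p = 0.00133), and Zfp36l1 by 1.16 (SE 0.138, adjusted p = 0.00432) and 1.25 (SE 0.138, adjusted p = 0.00273).

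Secreted partners of the chemokines formed a list of 7 genes, of which all 7 were tested in the antibody table. Ifng fell by 1.14 with NKp46+NKG2D (SE 0.141, adjusted p = 0.00531) and by 1.20 with NKp46+DNAM-1 (SE 0.141, adjusted p = 0.00373), from 592 ± 68.4 TPM in medium (SD, n = 3). Tnf fell by 2.70 with NKp46+NKG2D (SE 0.401, adjusted p = 0.0197) and differed by -1.66 with NKp46+DNAM-1 (SE 0.401, adjusted p = 0.0980). Ltb, the lymphotoxin beta gene, was the list's call in sorted cells, lower in WT SP than in WT TP (-2.38, SE 0.378, adjusted p = 0.00824) and higher in WT TN than in WT SP (1.92, SE 0.378, adjusted p = 0.0345). Srgn encodes serglycin, a granule proteoglycan that binds chemokines, and was higher with ionomycin (1891 ± 233 TPM) than with vehicle (673 ± 245 TPM; SD, n = 3), a rise of 1.54 (SE 0.261, adjusted p = 0.0203).

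**Figure D5:**
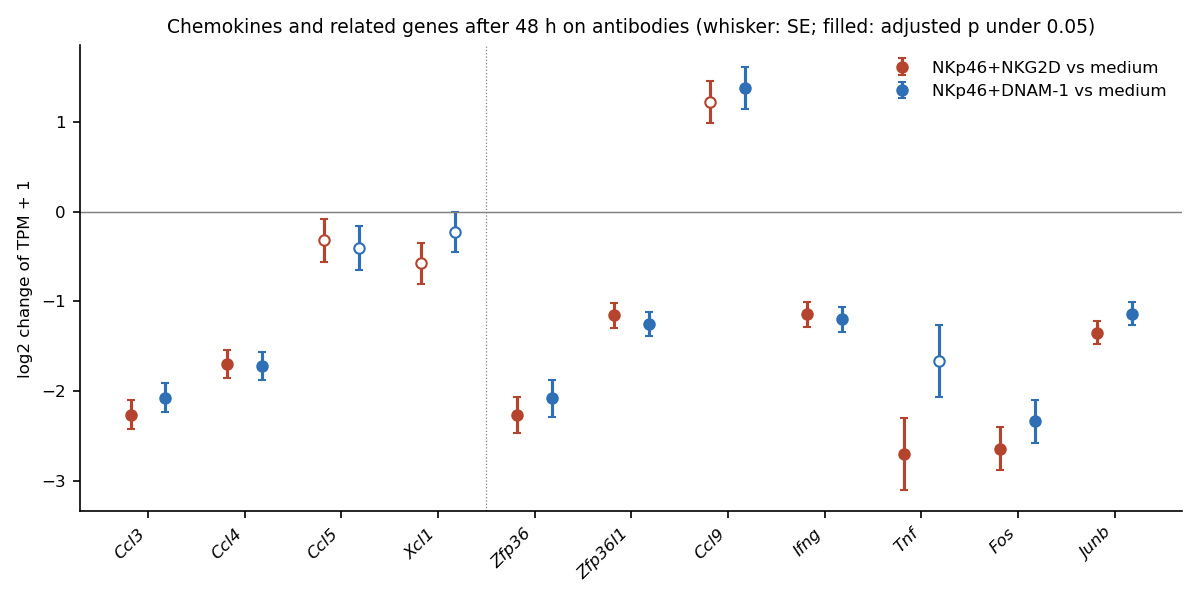
Change against medium (y axis, log2 of TPM + 1, whiskers are SE) of the 4 chemokines and of the list genes called in either antibody comparison (x axis); colour marks the antibody pair and filled points have an adjusted p under 0.05. Ccl3 and Ccl4 lie between -2.27 and -1.70, in the range of Fos, Junb, Zfp36, Zfp36l1, Ifng and Tnf, while Ccl9 lies above 0.

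Likeness to other genes was measured as the Pearson r of log2(TPM + 1) over the 18 subset libraries, among the 8369 genes that averaged 10 TPM or more. These libraries share groups and normalization, so r is a description. Ccl3 was most like Cbr4 (r = 0.85), Ccl4 (r = 0.80) and Dcp1a (r = 0.76), and Ccl4 most like Ubash3b (r = 0.87), Eps8l1 (r = 0.85) and Cbr4 (r = 0.85). Ccl5 was most like Thy1 (r = 0.85), S100a6 (r = 0.85) and Klrg1 (r = 0.85), the last a receptor of mature NK cells; after subtracting group means r was 0.08 for Thy1, 0.56 for S100a6 and -0.11 for Klrg1. Xcl1 was most like Ccser2 (r = 0.85), Tmem254a (r = 0.84) and Galnt6 (r = 0.84).

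Of these pairs, Ccl3 with Ccl4 was the closest in both other experiments, with r = 0.99 over the 9 antibody libraries and 0.87 over the 6 ionomycin and vehicle libraries. After subtracting group means it was 0.62 over the sorted subsets, 0.97 over the antibody libraries and 0.94 over the ionomycin and vehicle ones. Thy1 and Klrg1 turned from positive to negative with Ccl5, at r = -0.89 and r = -0.93 over the antibody libraries. Ccl5 and Ccl3 were not alike in the sorted subsets (r = -0.22), and Ccl5 and Xcl1 had r = 0.11 there, or -0.65 after subtracting group means.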

How the data were processed

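Per the labels' protocols, total RNA of NK cells was made into mRNA libraries. The authors deposited TPM per gene for each library in 4 tables; per the submitters' processing notes, STAR and RSEM were used with build GRCm39, and versions are not given in the sources used here. The members, lists and tests were chosen with earlier results of these data known. Every column belonged to a labelled sample. Groups came from the labels, 3 samples each; each table carries 1 batch date.

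In R 4.3.3, limma 3.58.1 (trended variances) was fitted to log2(TPM + 1) of genes averaging 1 TPM or more over a table, with all groups of the table sharing 1 spread, two-sided, with Benjamini-Hochberg adjustment over all genes tested within each of 15 comparisons. The script was tested on simulated data. Standard errors rest on the spread within groups, pooled over the 18, 6 or 9 libraries of a table, since TPM keep no depth. The labels call the replicates biological. Named list genes were those called in a comparison (at most 3 per list, by size of change), and likeness named the 3 genes with the highest r, leaving out predicted genes. The result of 1 list, of receptors, is not reported here. Alternatives were a pseudocount of 0.1, no filter, median-of-ratios or quantile scaling, no variance trend, only the compared groups, a replicate block, title groups and leaving out each library.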

Additional observations from a re-analysis of the deposited data

How the results depend on the processing

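Of 12 called changes of a chemokine, 12 kept their call with a pseudocount of 0.1 and 12 with the replicate block, 11 with median-of-ratios rescaling, 9 with quantile normalization, 8 without the filter on low values, 6 without a variance trend and 5 with only the compared groups in the fit; the cause of the losses was not tested. Quantile normalization replaces the highest values by a common set, and Ccl5 is among the highest. Over 836 refits of member changes, 756 kept direction and side of the threshold, 45 lost a call with the same sign, 2 gained one and 33 turned sign, 3 of them called changes (title groups).

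Members called in WT TN against TP were 1 with quantile normalization or without a trend and 0 with only the compared groups. In WT TN against SP the count was 0 without the filter, with median-of-ratios rescaling, with quantile normalization, without a trend and with only the compared groups. For KO against WT in TP it was 0 without the filter, with quantile normalization, without a trend and with only the compared groups, in SP it was 1 without the filter, without a trend and with only the compared groups, and in TN it was 0 without a trend and with only the compared groups. Leaving out each library in turn gave 1 to 2 members in WT TN against TP, 0 to 1 in WT TN against SP, 1 to 2 for KO against WT in SP and 0 to 1 in TN.

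Title groups left 0 members called against medium with NKp46+NKG2D and 0 with NKp46+DNAM-1, where 0 and 1 genes of 13689 were called (from 59 and 107) and 0 between the pairs (from 2), with changes of 0.064 and 0.197 for Ccl3, 0.139 for Ccl4 and 0.294 for Xcl1 with NKp46+DNAM-1, and -0.17 for Ccl4 between the pairs. Xcl1 in WT TN against SP turned to 0.001 with median-of-ratios rescaling and 0.012 with quantile normalization, and the Ccl5 interaction for SP to 0.028 with the latter.

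Leaving out each library turned the sign of uncalled changes, with these ranges. Ccl3 ranged from -0.007 to 0.1 in KO against WT TP, from -0.057 to 0.082 in WT TN against SP, from -0.029 to 0.2 in KO TN against TP and from -0.126 to 0.005 in KO SP against TP. Xcl1 ranged from -0.266 to 0.296 in WT TN against SP, from -0.038 to 0.531 in the TN interaction, from -0.185 to 0.361 in KO TN against TP and from -0.508 to 0.038 in KO SP against TP. Ccl4 ranged from -0.18 to 0.028 in WT TN against SP and Ccl5 from -0.021 to 0.097 in KO TN against SP. With ionomycin the ranges were -0.321 to 0.94 for Ccl3, -0.633 to 0.168 for Ccl4, -1.22 to 0.022 for Ccl5 and -0.222 to 1.048 for Xcl1. Between antibody pairs they were -0.132 to 0.117 for Ccl4 and -0.145 to 0.307 for Ccl5.

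Genes called moved by over 1.5 times in some fits. With only the compared groups, counts were 21 (from 157) in WT TN against TP, 8 (from 23) in WT SP against TP, 2 (from 46) in WT TN against SP, 33 (from 63), 15 (from 24) and 2 (from 5) in the KO subset comparisons, 43 (from 191), 68 (from 162) and 12 (from 86) for KO against WT in TP, SP and TN, and 26 (from 59) and 23 (from 107) with NKp46+NKG2D and NKp46+DNAM-1. Without the filter, ionomycin gave 185 (from 418), NKp46+DNAM-1 45 and KO SP against TP 41. Without a trend, ionomycin gave 172 and KO TN against SP 1. The interactions gave 0 to 10 genes for TN and 0 to 6 for SP. Leaving out a library gave 3 to 342 genes for ionomycin, 28 to 257 for NKp46+NKG2D and 26 to 516 for NKp46+DNAM-1. Among genes called for KO against WT, higher against lower was 118 to 73 in TP, 92 to 70 in SP and 51 to 35 in TN, and 95 to 93, 80 to 78 and 47 to 43 with median-of-ratios rescaling.

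Deviations from group means correlated by over 0.1 in 0 of 18 same-numbered pairs of subset libraries. In the ionomycin and antibody tables the counts were 1 of 3 and 1 of 9. Yet 11 of 18, 5 of 6 and 7 of 9 libraries correlated best with their own number. These values do not settle whether a number marks a shared mouse, which no label states. The main fits did not use the numbers as pairs. With the replicate block, 3 members were called against medium in both antibody comparisons, Ccl5 being added (-0.32, adjusted p = 0.048, and -0.41, adjusted p = 0.0152), and genes called rose to 239 and 528, against 59 and 107. The block gave 8 genes in KO TN against SP, 1 and 0 in the interactions and 0 between the antibody pairs, and changed no other member count. Depth is unknown, so precision rests on the spread between libraries.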
